A study of Mus musculus with 4 samples.

Results

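The genes described here are 10 genes of the endoplasmic reticulum (ER) stress and ATF4 responses, *Atf4*, *Atf6*, *Xbp1*, *Ddit3*, *Trib3*, *Asns*, *Hspa5*, *Hsp90b1*, *Dnajb9* and *Herpud1*, measured by PRO-seq in mouse liver with and without *Hdac3*. They were taken by symbol from a table of 20642 gene symbols, with the transcript of the most promoter-proximal reads kept for each symbol. All 10 were in the table with a single transcript each. All 10 were also among the 12705 active genes, which had reads near the start and more than 4 normalized reads per kb of gene body on average. No gene of the set was lost to a filter on low values.

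In PRO-seq, polymerases that are already on a gene run on in isolated nuclei with labeled nucleotides, and the labeled RNA is sequenced to map where they stood. The livers came from C57BL/6 mice on postnatal day 14, and gave 2 WT libraries (WT1 and WT2) and 2 *Hdac3* KO libraries (KO1 and KO2). WT mice were Alb-Cre+ *Hdac3* +/+, and KO mice were Alb-Cre+ *Hdac3* fl/fl or fl/-, so that the controls carried the Cre transgene too. Alb-Cre is driven by the albumin promoter, which is active in hepatocytes, and its action in other cells of the liver was not measured here. Cells of KO mice that did not express Cre kept any floxed allele, and the null allele was present in every cell of the fl/- mice. Each library was made from nuclei of the whole liver pooled over several mice, so differences between single mice could not be seen, and the mix of fl/fl and fl/- animals in each KO pool was not given in the sources used here.

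The unfolded protein response is the set of pathways that cells use when unfolded proteins build up in the ER. Its 3 sensors are IRE1, which splices the mRNA of *Xbp1* into a form that encodes an active transcription factor, ATF6, which is cut in the Golgi to free a transcription factor, and PERK, which phosphorylates eIF2alpha and thereby favors the translation of ATF4. Other kinases of eIF2alpha also lead to ATF4, for example when amino acids are scarce, and ATF4 then activates genes of amino acid supply, redox balance and cell death. Splicing of *Xbp1*, cutting of ATF6 and translation of ATF4 take place after transcription and are not seen by PRO-seq. The liver secretes most plasma proteins and depends on these pathways for protein folding.

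The promoters are shown first, because XBP1, ATF6 and ATF4 act through short DNA elements that some of these genes carry. RefSeq promoters (GRCm38.p6, 250 bases before to 50 after the start) were available for 9 of the 10 genes, all but *Atf6*. They were searched on both strands for 4 letter patterns. TGATGNAA is the core of the C/EBP-ATF response element, which ATF4 binds with a C/EBP partner, and it was found in 3.97% of all 32851 promoters. CCAAT followed after 9 bases by CCACG is the ER stress response element, which ATF6 and XBP1 use, and it was found in 0.119% of promoters. ATTGG followed after any 1 base by CCACG is a second form of this element, found in 0.0365%, and TGACGTGG is the core of the unfolded protein response element, found in 0.676%. *Hspa5* held 1 ER stress response element and *Hsp90b1* held 2, *Herpud1* held the second form together with a C/EBP-ATF core, and *Asns* and *Trib3* held a C/EBP-ATF core, that of *Trib3* after the start. *Atf4*, *Xbp1*, *Ddit3* and *Dnajb9* held none of the 4 patterns in this window, which says only that these letters are not there. A match describes the sequence and does not show that a factor was bound.

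The stretches with these patterns are given 5′ to 3′ on the strand of the gene, with the matched bases in capitals. On the plus strand lie *Herpud1* (chr8:94386302-94386402, from 127 to 27 bases before the start) and *Hspa5* (chr2:34772010-34772058, from 80 to 32 bases before the start). On the minus strand lie *Hsp90b1* (chr10:86705518-86705671, from 227 to 74 bases before the start) and *Asns* (chr6:7693210-7693247, from 38 bases before the start to the last base before it). The promoter of *Herpud1* is shown because its gene body changed, and the other stretches because their gene bodies were not called. In *Herpud1*, the C/EBP-ATF core comes first and reads as its reverse complement, and in *Hsp90b1* the later of the 2 elements reads as its reverse complement.
Herpud1: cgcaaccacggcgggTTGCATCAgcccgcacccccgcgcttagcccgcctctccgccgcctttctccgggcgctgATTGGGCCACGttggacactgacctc
Hspa5: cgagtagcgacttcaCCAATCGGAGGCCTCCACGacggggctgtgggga
Hsp90b1: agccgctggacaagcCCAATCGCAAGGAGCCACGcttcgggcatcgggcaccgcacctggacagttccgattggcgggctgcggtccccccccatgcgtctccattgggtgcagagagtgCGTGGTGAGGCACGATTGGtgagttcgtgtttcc
Asns: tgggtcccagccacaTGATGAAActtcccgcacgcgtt

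For each transcript the table gives promoter-proximal reads, counted in the 50 bp window with the most reads around the start, and gene body reads, counted from 1 kb downstream of the start to the end of the gene. Both are normalized by a scaling factor per library. The pausing index is the promoter-proximal density over the gene body density, with 1 normalized read added in each region. The libraries held from 16628518 (KO2) to 26190040 (WT2) reads on genes, of which 9.38% (WT2) to 17.0% (KO2) were promoter-proximal. KO and WT were compared with limma on log2 values, and a gene was called when its Benjamini-Hochberg adjusted p over all active genes was under 0.05 and its absolute log2 fold change over 0.6. The median log2 fold change of all active genes was -0.09 for gene bodies and 0.56 for promoter-proximal reads, so that promoter-proximal values are best read against this shift. *Hdac3* itself had 665 and 648 normalized gene body reads in WT and 609 and 582 in KO, a log2 fold change of -0.14 (standard error 0.13, limma adjusted p = 0.413). Since the conditional allele removes only a part of *Hdac3* and the table gives a sum over the whole gene body, this value does not test the genotype.

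In the gene bodies, 9 of the 10 genes did not pass the test, with log2 fold changes from -0.14 (*Hsp90b1*) to 0.18 (*Dnajb9*), and *Herpud1* alone fell. The call of 1 gene down and 0 up stands beside 11.4% of active genes called down and 10.4% called up. At an unadjusted p under 0.05, *Herpud1* was still the only gene of the 10, and edgeR (10.5% of active genes up, 11.4% down) and DESeq2 (9.59% up, 10.9% down) also called it and no other. The median gene body log2 fold change of the 10 genes was -0.09, equal at this precision to that of all active genes. The libraries of the genotypes did not overlap for 3 of the 10 genes (*Atf6* higher in KO, *Hsp90b1* and *Herpud1* lower), while they did not overlap for 70.5% of active genes. With 2 libraries against 2, an exact two-sided permutation test of a single gene cannot give a p below 0.333, so the calls rest on the spread that limma pools over genes.

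**Figure D1:**
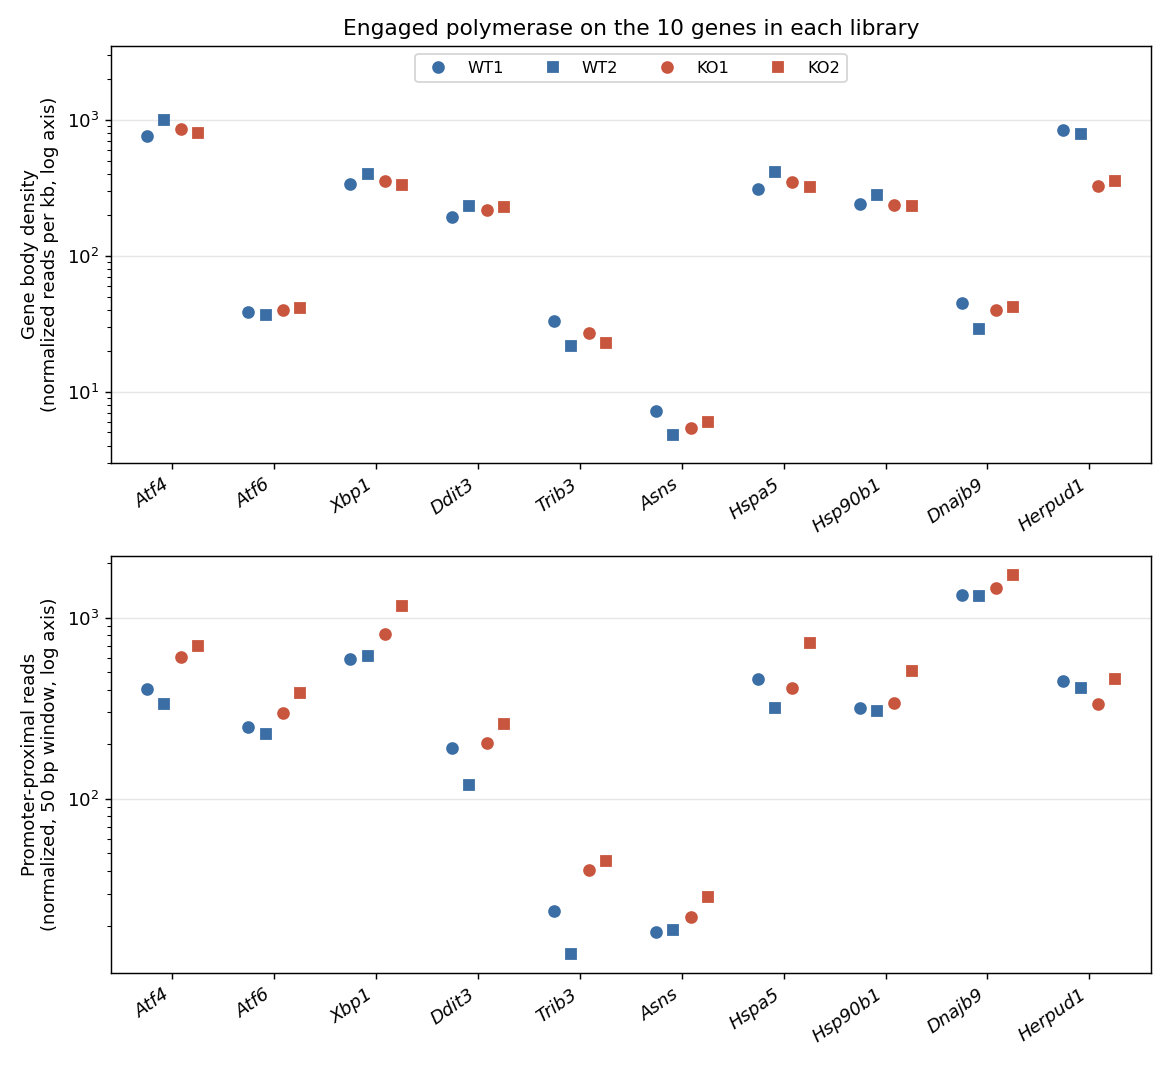
Gene body density (normalized reads per kb, upper panel) and promoter-proximal reads (normalized, lower panel) of the 10 genes on log axes, 1 symbol for each of WT1, WT2, KO1 and KO2. In the gene body the KO libraries of *Herpud1*, at 326 and 354 reads per kb, stand apart from WT at 844 and 783, and for 8 genes the promoter-proximal reads of KO1 and KO2 both exceed those of WT1 and WT2.

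The 3 transcription factors at the head of the pathways kept gene body levels whose difference was within the error. *Atf4*, the factor that gathers the signals of the eIF2alpha kinases, lies at chr15:80255184-80257545 on the plus strand and had 1027 and 1352 normalized gene body reads in WT and 1167 and 1086 in KO. Both KO values lay between the WT values. The log2 fold change was -0.07 (standard error 0.13, 95% interval -0.34 to 0.21, limma adjusted p = 0.722). *Xbp1* (chr11:5520641-5525993, plus strand), the target of IRE1, had 1323 and 1565 in WT and 1377 and 1292 in KO. The genotypes overlapped, with a log2 fold change of -0.11 (standard error 0.12, interval -0.36 to 0.14, adjusted p = 0.500). *Atf6* (chr1:170704457-170868585, minus strand), the membrane-bound sensor and factor, had 6282 and 5949 in WT and 6480 and 6671 in KO. Both KO libraries were above both WT libraries, but by a log2 fold change of only 0.11 (standard error 0.11, interval -0.11 to 0.33, adjusted p = 0.463). The small RNA genes *Gm23523* and *Gm25235* overlap *Atf6* on the same strand.

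*Ddit3*, *Trib3* and *Asns*, which are known as targets of ATF4, also did not pass the gene body test. *Ddit3* (chr10:127290793-127296291, plus strand) encodes CHOP, a factor linked to cell death under ER stress, and had 866 and 1050 normalized gene body reads in WT and 980 and 1020 in KO. The KO values lay within the WT range, with a log2 fold change of 0.07 (standard error 0.13, interval -0.19 to 0.33, limma adjusted p = 0.701). The last 68 bp of *Ddit3* overlap the end of *Mars* on the opposite strand, and *Gm4189* also overlaps *Ddit3* on that strand. Whether gene body reads were counted by strand was not given in the sources used here. *Trib3* (chr2:152337425-152344060, minus strand), a pseudokinase that restrains the response, had 186 and 123 in WT and 152 and 129 in KO, all within the WT range. The log2 fold change came to -0.11 (standard error 0.21, interval -0.55 to 0.33, adjusted p = 0.710). *Asns* (chr6:7675165-7693209, minus strand), which makes asparagine, was the least transcribed of the 10, with 122 and 81 in WT and 92.3 and 102 in KO. The genotypes overlapped again, and the interval of the log2 fold change of -0.03 ran from -0.51 to 0.45 (adjusted p = 0.922), so a moderate change could not be detected at this depth.

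Among the chaperones, none passed the gene body test. *Hspa5* (chr2:34772090-34776529, plus strand) encodes BiP, the main HSP70 chaperone of the ER and the usual reporter of ER stress. It had 1072 and 1419 normalized gene body reads in WT and 1197 and 1093 in KO, both KO values within the WT range, with a log2 fold change of -0.11 (standard error 0.13, interval -0.38 to 0.16, limma adjusted p = 0.547). *Hsp90b1* (chr10:86690841-86705444, minus strand), the HSP90 of the ER, had 3246 and 3811 in WT and 3198 and 3175 in KO. Both KO libraries were below WT, WT1 by a narrow margin, and the log2 fold change of -0.14 (standard error 0.11, interval -0.37 to 0.09) had an adjusted p of 0.330. *Gm15344* and *Gm25745* overlap *Hsp90b1* on the same strand and *1810014B01Rik* on the opposite strand, and their reads were not separated here. *Dnajb9* (chr12:44205897-44210068, minus strand), a J-domain partner of BiP, had 143 and 91 in WT and 127 and 132 in KO. The KO values lay inside the WT range, and the interval of the log2 fold change of 0.18 ran from -0.28 to 0.64 (adjusted p = 0.552). The microRNA gene *Mir5627* overlaps *Dnajb9* on the opposite strand. *Hspa5* and *Hsp90b1*, the genes with an ER stress response element above, thus had gene body changes near that of the median active gene.

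*Herpud1*, an ER membrane protein that helps to degrade misfolded ER proteins, was the only gene of the 10 called in the gene body. It lies at chr8:94386429-94395371 on the plus strand and had 6632 and 6157 normalized gene body reads in WT against 2559 and 2783 in KO, or 6394 ± 336 against 2671 ± 159 (mean ± SD, n = 2 libraries each). WT exceeded KO 2.39-fold, while the libraries of the same genotype differed by 0.11 (WT) and 0.12 (KO) on the log2 scale. The log2 fold change was -1.26 (standard error 0.11, interval -1.48 to -1.04, limma adjusted p = 2.88e-09). Each KO library was below each WT library, with log2 ratios between -1.37 and -1.15. Of all active genes, 3.19% had a lower gene body log2 fold change. The gene *Gm15890* overlaps *Herpud1* on the opposite strand, so reads of the 2 genes can be told apart only where reads were counted by strand.

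The fall of *Herpud1* in the gene body was not matched by its promoter-proximal reads. These were 449 and 407 in WT and 333 and 459 in KO, so the genotypes overlapped, and the log2 fold change was -0.13 (standard error 0.30, interval -0.72 to 0.46, limma adjusted p = 0.746). It was the only gene of the 10 with a negative promoter-proximal change. Against the median of active genes the value was -0.69, and when promoter-proximal reads were scaled on their own by the median of ratios, *Herpud1* was called down there too (log2 fold change -0.70, adjusted p = 0.0224). Its pausing index was 10.7 and 10.4 in WT and 20.5 and 25.9 in KO, higher in both KO libraries. The log2 change of 1.13 was beside a median of 0.61 over active genes, and did not pass the test (standard error 0.44, adjusted p = 0.0629).

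At the promoter-proximal region, 9 of the 10 genes had a log2 fold change above 0, as had 84.2% of active genes, and 2 genes, *Atf4* and *Trib3*, were called up, beside 25.8% of active genes. None was called down, beside 2.20%. The median of the 10 genes was 0.51 against 0.56 for all active genes, and 4 of the 10 (*Trib3*, *Atf4*, *Xbp1* and *Ddit3*) were above the latter. In 8 genes both KO libraries were above both WT libraries, as in 61.9% of active genes.

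*Trib3* had the largest promoter-proximal rise of the 10 genes, on few reads. Its normalized reads were 24.1 and 14 in WT and 40.3 and 45.5 in KO, from 21, 14, 38 and 30 whole reads. Both KO libraries were above both WT libraries, with a log2 fold change of 1.18 (standard error 0.41, limma adjusted p = 0.0218) or 0.62 above the median of active genes. *Atf4* had 402 and 333 in WT and 604 and 694 in KO, again without overlap. Its rise in log2 terms was 0.82 (standard error 0.30, adjusted p = 0.0266), or 0.26 above the median of active genes. Both calls were lost when promoter-proximal reads were scaled on their own by the median of ratios (*Atf4* 0.25, adjusted p = 0.483, and *Trib3* 0.63, adjusted p = 0.279). This scaling takes out the shift of the median active gene. The call of *Atf4* was lost without WT1 (adjusted p = 0.155), WT2 (0.351) or KO2 (0.137), that of *Trib3* without any 1 of the 4 libraries (WT1 0.0808, WT2 0.397, KO1 0.0682, KO2 0.179) and under DESeq2 (0.0989).

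*Xbp1* lay just outside the threshold. Its promoter-proximal reads were 592 and 610 in WT and 813 and 1161 in KO, higher in both KO libraries, with a log2 fold change of 0.69 (standard error 0.29, limma adjusted p = 0.0537). DESeq2, which called 21.0% of active genes up in this region, put it inside (adjusted p = 0.0473), as did leaving out KO1 (0.95, adjusted p = 0.0336). With the region scaled on its own the log2 fold change was 0.12 (adjusted p = 0.767), and without KO2 it was 0.43 (adjusted p = 0.313). *Ddit3* had 192 and 119 in WT and 204 and 258 in KO (log2 fold change 0.60, adjusted p = 0.136), and *Atf6* had 250 and 229 in WT and 299 and 386 in KO (0.50, adjusted p = 0.192). In both genes the KO libraries were above WT, by about the shift of the median active gene.

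In the chaperones and *Asns* the promoter-proximal change was below the median of active genes. *Hspa5* had 458 and 318 in WT and 411 and 723 in KO, and KO1 lay between the WT libraries (log2 fold change 0.51, limma adjusted p = 0.166). Its log2 fold change was 0.92 without KO1 (adjusted p = 0.0461, called), 0.11 without KO2 (adjusted p = 0.847), 0.25 without WT2 (adjusted p = 0.733), and -0.06 with the region scaled on its own (adjusted p = 0.913). *Hsp90b1* had 319 and 305 in WT and 339 and 509 in KO (0.41, adjusted p = 0.277), and *Asns* had 18.4 and 19 in WT and 22.3 and 28.8 in KO (0.42, adjusted p = 0.433). In these 2 genes KO was above WT, with most of the difference in KO2. *Dnajb9* had the most promoter-proximal reads of the 10, with 1338 and 1310 in WT and 1449 and 1719 in KO. Its log2 fold change of 0.25 (interval -0.29 to 0.79, adjusted p = 0.470) was 0.31 below the median of active genes.

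**Figure D2:**
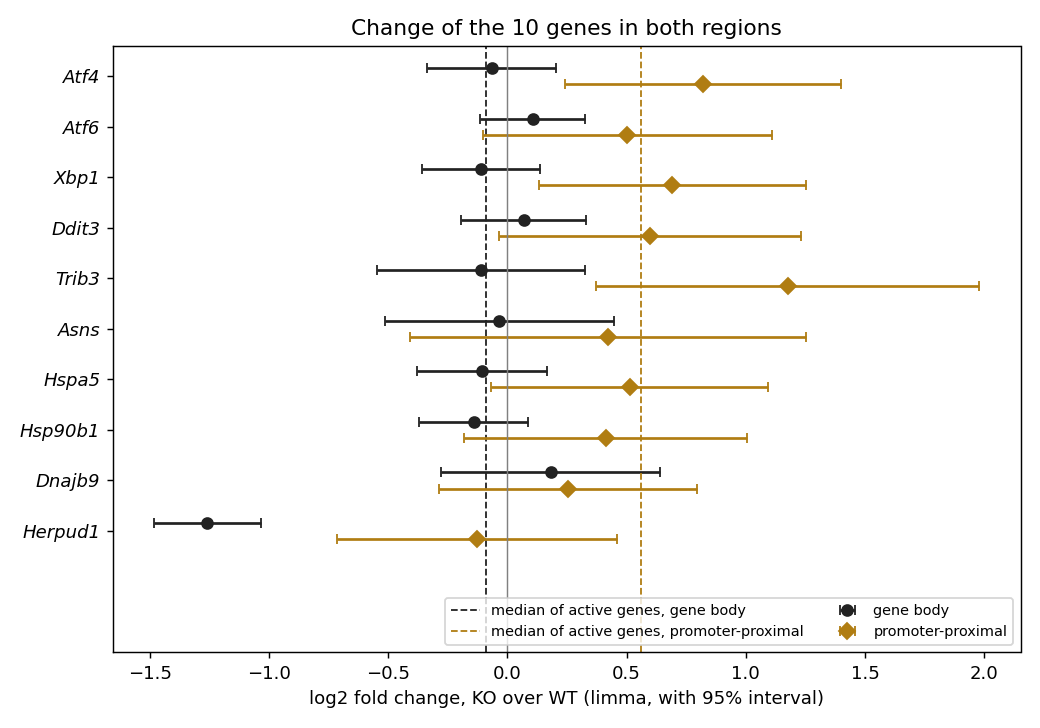
Log2 fold change (KO over WT, horizontal axis) of each of the 10 genes for the gene body (circles) and the promoter-proximal region (diamonds), with 95% intervals from limma and dashed lines at the medians of active genes. In the gene body only the interval of *Herpud1* lies apart from 0, while the promoter-proximal intervals of all genes but *Herpud1* include the median of active genes at 0.56, and the calls of *Atf4* and *Trib3* were lost when that region was scaled on its own.

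Per length, the 10 genes spanned a wide range of gene body density. In WT, the mean density (normalized reads per kb) was 876 for *Atf4*, 814 for *Herpud1*, 370 for *Xbp1*, 362 for *Hspa5*, 259 for *Hsp90b1*, 213 for *Ddit3*, 37.7 for *Atf6*, 37.0 for *Dnajb9*, 27.4 for *Trib3* and 5.95 for *Asns*. The WT libraries of *Atf4* and *Herpud1* overlapped, as did those of *Xbp1* and *Hspa5*, of *Atf6* and *Dnajb9* and of *Dnajb9* and *Trib3*, while those of the other neighbors did not. *Atf4* and *Herpud1* were at percentiles 99.6 and 99.5 of active genes, and *Asns* at 5.58, close to the limit of activity. In KO, *Herpud1* had 340, next to *Xbp1* with 342 and *Hspa5* with 333, and *Atf4* stayed first with 829.

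The pausing index separated *Dnajb9* from the rest. It was 588 and 904 in WT and 717 and 820 in KO, at percentile 99.1 of active genes in WT, so that the reads of this gene lay mostly in the window at its start in both genotypes. The log2 change was 0.07 (limma adjusted p = 0.881), beside 0.61 for the median active gene. *Atf4* had the lowest mean index in WT, with 10.6 and 6.70 in its libraries, which overlapped those of *Herpud1* and *Ddit3*. In KO the index of *Atf4* was 14.1 and 17.4 (log2 change 0.89, limma adjusted p = 0.139). *Trib3* was the only gene of the 10 with a called index, 15.1 and 13.6 in WT and 30.5 and 40.3 in KO (log2 change 1.29, standard error 0.43, adjusted p = 0.0332), beside 12.4% of active genes called up and 0.519% called down. That call was lost under the scaling within each region (0.66, adjusted p = 0.347) and without WT1 (adjusted p = 0.335), WT2 (0.601) or KO2 (0.156). All 10 genes had an index change above 0, as had 88.8% of active genes, and the median of the 10 was 0.59.

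The values come from whole liver, where fewer cells of a type and less RNA per cell cannot be told apart, so markers of liver cells are given beside *Herpud1*. The 8 hepatocyte markers summed to 333796 and 351642 normalized gene body reads in WT and 193196 and 192467 in KO. Of these, 4 of 8 were called down and 0 up, with a median log2 fold change of -0.71. Of all active genes, 11.4% were called down and 10.4% up, and the counts of every marker list stand beside these shares. The 6 hepatic stellate cell markers summed to 9491 and 10642 in WT and 21259 and 19568 in KO, and all 6 were called up. Of the 6 endothelial markers 5 were called up (49339 and 53369 in WT, 92920 and 83004 in KO), and of 6 active Kupffer cell and leukocyte markers none was called (20498 and 20128 in WT, 27039 and 22355 in KO). Of the 5 active erythroid markers 4 were called down (768 and 954 in WT, 341 and 296 in KO), and the 6 cholangiocyte markers were low throughout (176 and 226 in WT, 207 and 184 in KO), with 1 of the 3 active ones called down and 0 up. As sums, the hepatocyte and erythroid markers thus moved in the direction of *Herpud1*. The stellate, the endothelial, and the Kupffer cell and leukocyte markers moved in the other direction. The part of these markers in the result was not tested. The other 9 genes of the set were not called in the gene body. The markers *Adgre1*, *Epb42* and *Hba-a1* have no values here, and the cholangiocyte markers *Krt7*, *Epcam* and *Cftr* were not active.

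The other genes of these pathways were taken from 6 lists of 104 genes by known role, of which 103 were in the table and 96 were active. In the gene body, 5 were called up and 9 down, beside 10.4% and 11.4% of all active genes, and their median log2 fold change was -0.15. The sensors, eIF2alpha kinases and phosphatases had 0 calls among 14 active genes, the ER chaperones and folding enzymes 0 among 21, and the genes of ER-associated degradation and translocation 0 among 17. *Herpud1* belongs with the last group by role. *Ern1*, which encodes IRE1, had 5964 and 5319 normalized gene body reads in WT and 4270 and 4093 in KO, a log2 fold change of -0.43 with a limma adjusted p of 0.00268, short of the fold threshold. *Eif2ak3*, which encodes PERK, had 2812 and 2917 in WT and 3064 and 2847 in KO (0.04, adjusted p = 0.775), and *Eif2ak4*, the kinase GCN2 that senses uncharged tRNA, had a log2 fold change of -0.25 (adjusted p = 0.0699). *Ppp1r15a*, the phosphatase subunit GADD34, was at 0.49 (adjusted p = 0.00994) and *Creb3l3*, a liver factor of the ATF6 type, at -0.52 (adjusted p = 0.000954), both short of the fold threshold.

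Calls were most frequent among the transcription factors and stress regulators known as ATF4 targets, where 9 of 15 active genes were called, beside 21.8% of all active genes, and they went both ways. The lists were chosen with earlier results of these data known, so this share only describes the listed genes. *Chac1*, which degrades glutathione, had 264 and 197 normalized gene body reads in WT and 19.1 and 15.2 in KO, a log2 fold change of -3.67 (standard error 0.26, limma adjusted p = 2.03e-10). *Cebpb*, a partner of ATF4, had 208 and 233 in WT and 78.5 and 100 in KO (-1.30, adjusted p = 1.28e-05). *Ddit4*, an inhibitor of mTORC1, fell by 0.70 (adjusted p = 0.000875) and the factor *Atf5* by 0.63 (adjusted p = 0.000209) on the log2 scale. *Fgf21*, a hormone of fasting, was called down on few reads, 17.2 and 13 in WT and 3.18 and 1.52 in KO. The KO libraries of these genes lay below both WT libraries, as in 42.8% of active genes. For *Cebpb* and *Ddit4* this was a condition of being named.

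Other genes of the same list rose. *Gdf15*, a stress hormone, had 145 and 88 normalized gene body reads in WT and 387 and 557 in KO (log2 fold change 2.03, standard error 0.21, limma adjusted p = 5.47e-08). *Stc2*, a secreted glycoprotein, had 56.2 and 73 in WT and 206 and 197 in KO (1.64, adjusted p = 1.28e-06). *Atf3*, a factor induced by many stresses, had 158 and 191 in WT and 404 and 469 in KO (1.32, adjusted p = 8.43e-07), and *Vldlr*, a lipoprotein receptor, rose by 0.79 (adjusted p = 0.000748). In all of them both KO libraries were above both WT libraries, as in 27.6% of active genes. Such a separation was part of the rule by which called genes were named. The median of this list, -0.10, was close to that of all active genes, since rises and falls stood against each other.

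**Figure D3:**
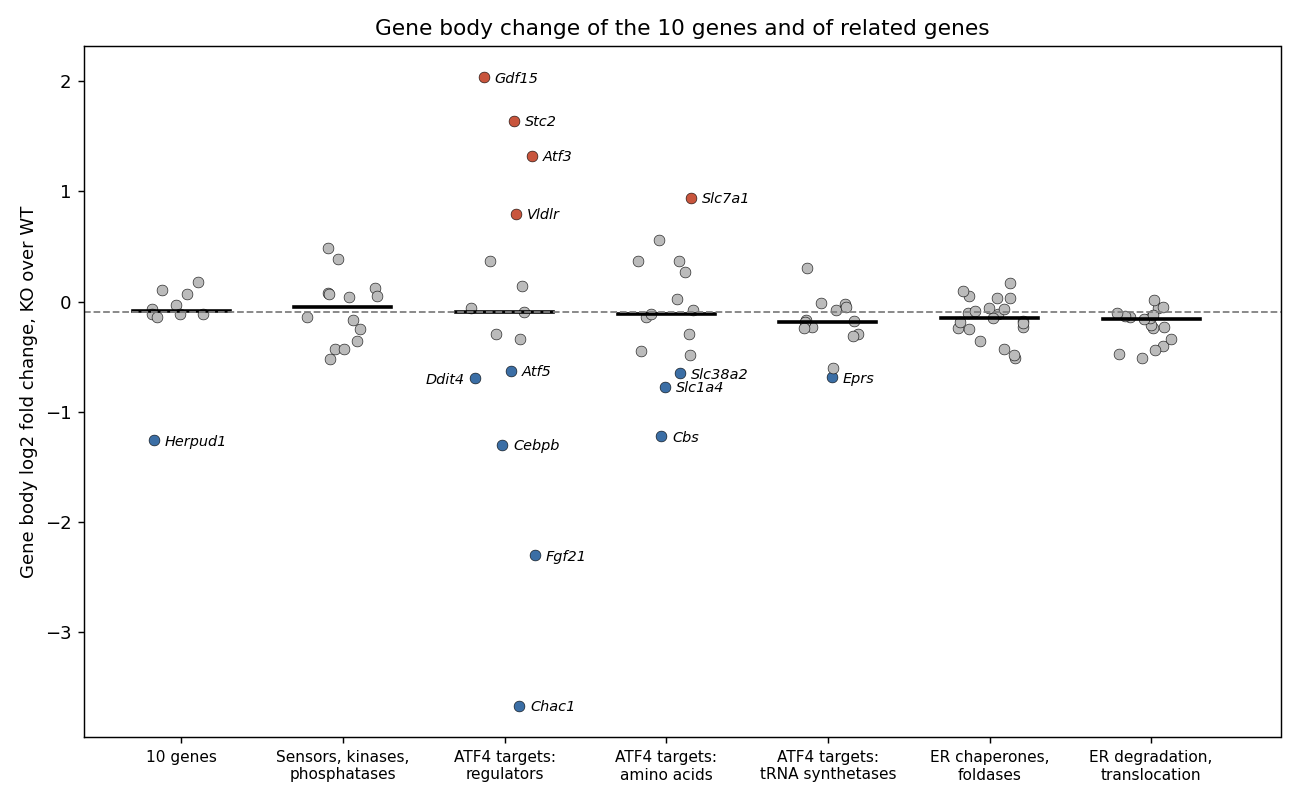
Gene body log2 fold change (KO over WT, vertical axis) of the 10 genes and of the active genes in 6 lists of related genes, 1 point per gene, red where called up, blue where called down and grey where not called, with a bar at the median of each list and a dashed line at the median of active genes (-0.09). The calls of the ATF4 target regulators run from -3.67 (*Chac1*) to 2.03 (*Gdf15*), and the lists of sensors, ER chaperones and ER degradation hold no called gene.

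Of the genes of amino acid synthesis and transport, 15 of 20 were active. In the gene body 1 was called up and 3 down, beside 10.4% and 11.4% of all active genes. *Cbs*, which starts the conversion of homocysteine to cysteine, had 4163 and 5268 normalized gene body reads in WT and 1933 and 2080 in KO (log2 fold change -1.22, limma adjusted p = 1.89e-08). *Slc1a4*, a transporter of neutral amino acids, had 1000 and 1162 in WT and 638 and 624 in KO (-0.77, adjusted p = 2.94e-05), while *Slc7a1*, a transporter of cationic amino acids, had 453 and 545 in WT and 954 and 955 in KO (0.94, adjusted p = 4.21e-06). *Psat1*, of serine synthesis, was not active, with 63.1 and 81 in WT and 58.3 and 72.9 in KO. Of the 14 genes of aminoacyl-tRNA synthetases and tRNA export, only *Eprs* was called in the gene body, downward, beside the same shares. At the promoter-proximal region, 21 of the 96 active related genes were called up and 3 down, beside 25.8% and 2.20% of all active genes, and their median of 0.58 was close to the 0.56 of all active genes. Among those that averaged 50 or more normalized reads in this region, the largest rises were *Lars* (1.27), *Mars* (1.21), *Pck2* (1.20), *Pdia3* (1.13) and *Creb3* (1.11), while *Vldlr* (1.81) and *Slc6a9* (1.39) rose on fewer reads. With promoter-proximal reads scaled on their own, 1 was called up and 7 down. *Chac1* (-1.47, adjusted p = 0.00247), *Fgf21* (-1.77, adjusted p = 0.00243) and *Cth*, of cysteine synthesis (185 and 166 reads in WT, 73.2 and 103 in KO, adjusted p = 0.0179), were called down.

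**Figure D4:**
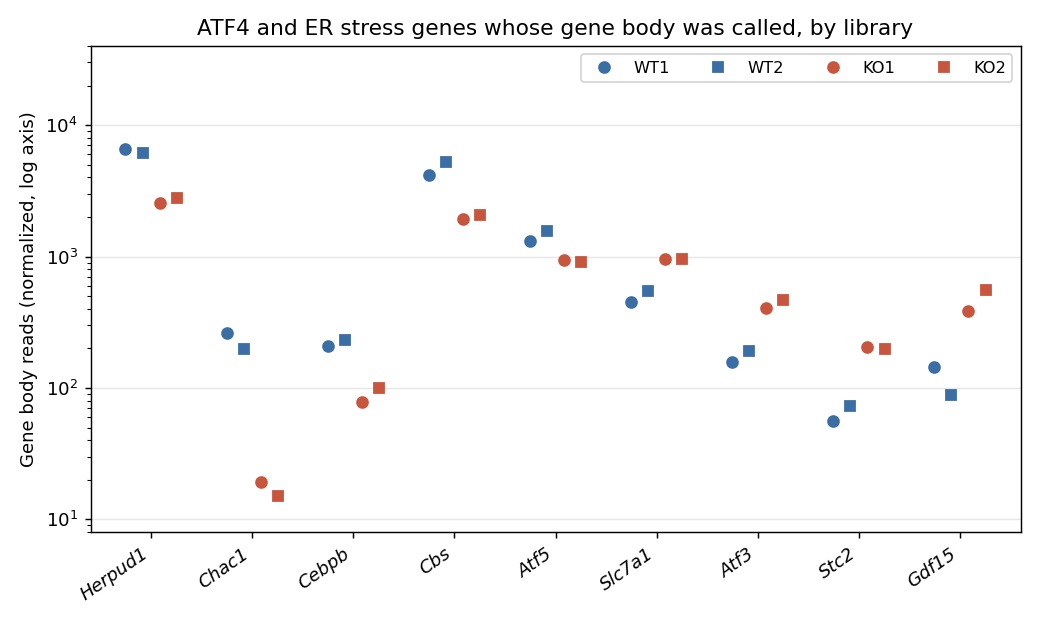
Normalized gene body reads (log scale) of *Herpud1* and 8 of the 14 related genes that were called in the gene body, with 1 point for each of the 4 libraries. The related genes were named from calls whose genotypes do not overlap, apart from *Atf5*, so the plot shows only their levels and directions, with KO above WT for *Gdf15*, *Stc2*, *Atf3* and *Slc7a1* and below WT for *Herpud1*, *Chac1*, *Cebpb*, *Cbs* and *Atf5*.

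Genes that hold the same promoter pattern are set side by side here as a description. Among the 10 genes and the 81 related genes with a promoter, 17 held the C/EBP-ATF core, of which 15 were active, and in the gene body *Atf3* was called up, *Herpud1*, *Chac1*, *Fgf21* and *Slc1a4* were called down, and 10 were not called, beside the 10.4% of active genes called up and 11.4% called down. *Chac1* (chr2:119351034-119351071, plus strand) and *Atf3* (chr1:191183421-191183458, minus strand) are shown because they hold the same 8 letters as *Herpud1*, in capitals, in the same orientation, and *Atf3* rose where the other two fell.
Chac1: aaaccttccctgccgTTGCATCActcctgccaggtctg
Atf3: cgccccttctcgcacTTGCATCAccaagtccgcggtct
The 9 genes with an ER stress response element included 8 active ones, none of them called in the gene body, with log2 fold changes from -0.36 to 0.16. The second form of that element was in *Herpud1* and in *Dnajb11*, a J-domain chaperone of the ER that was not called (-0.19).

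The deposited list of 2282 enhancers, called on reads pooled over the libraries, linked 29 enhancers to 9 of the 10 genes, all but *Asns*. Of the 32 links, 9 were on the chromosome of the gene itself and none came from chromatin contacts in liver. *Xbp1* was the only gene of the set that was the closest gene of a listed enhancer or had one within 50 kb. That enhancer, at chr11:5484875-5504650 in mm10, had 3 centers, none of them in the FANTOM5 catalog, and lay 16317 bp from the start of *Xbp1*. For *Herpud1*, the link on its own chromosome was to chr8:94454449-94463239, whose closest gene was *Nlrc5* and whose contact was from Th1 cells. Since the list holds no values of single libraries, it does not allow a comparison of these enhancers between genotypes. The study reported changes of enhancers between KO and WT, which were not used here.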

How the data were processed

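PRO-seq libraries of day 14 mouse liver, 2 WT and 2 *Hdac3* KO, were grouped by their labels. The authors trimmed reads with cutadapt, aligned them to mm10 with Bowtie2 and counted them with NRSA. The authors then multiplied the counts of a library by a scaling factor (WT1 1.15, WT2 1, KO1 1.06, KO2 1.52), so the deposited columns of WT2 are plain counts. Those of the other 3 libraries, and the deposited densities per bp, are normalized signal. Division by the factors gave whole reads for 100% of 41640 values per library, within 0.01 of a whole number. Intervals and tests over 2 libraries rest on the spread between libraries made from pools of mice. The spread of each gene was moderated by that of the other genes. The deposited enhancer list gives positions and distances in bp.

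Log2 values of normalized reads plus 1 were compared with limma 3.58.1 (R 4.3.3; trend, no block), with Benjamini-Hochberg adjustment over 12705 active genes. On recovered reads edgeR 4.0.16 called 1329 gene bodies up and 1454 down, and DESeq2 1.42.0 called 1219 and 1382. The study compared reads with DESeq2, which is an alternative here. Other alternatives changed the pseudocount, activity filter, transcript, thresholds and scaling, added a replicate block, or left out each library. The procedure was tested on simulated data. Coordinates of genes and promoters are those of RefSeq on GRCm38.p6. Tables and plots were made with Python 3.11.15, pandas 2.3.3 and matplotlib 3.10.9.

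The 10 genes, the gene lists and the marker lists were chosen with earlier results of these data known. Named are the 10 genes; from the related lists, per region, the 5 largest rises and 5 largest falls among called genes with non-overlapping genotypes and a mean of at least 50 normalized reads; 10 further genes whatever their values; and *Hdac3*. *Eprs*, *Dnajb11* and *Slc6a9* were named after their values were seen, as were the called genes of small counts and the neighbors of *Herpud1*. The ChIP-seq and mRNA data of the study were not analysed here.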

Additional observations from a re-analysis of the deposited data

How the results depend on the processing

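In the gene body, *Herpud1* was called down under every alternative run, with log2 fold changes from -1.32 to -1.18, and none of the other 9 genes was called. The promoter-proximal calls were less stable. In place of 2 of the 10 genes called up and 0 down, scaling within each region gave 0 up and 1 down by the median of ratios and by TMM alike (*Herpud1*), the test without an activity filter gave 0 up, and leaving out a library gave 0 to 3 up. The genes with a raised pausing index numbered 1, and 0 under both scalings and without the activity filter, 3 with a pseudocount of 10, and 0 to 4 with a library left out. Of the related genes, 5 were called up and 9 down in the gene body, against 0 and 2 without the activity filter, 11 and 25 with no fold threshold, and 4 to 6 and 8 to 13 with a library left out. At the promoter-proximal region their 21 up and 3 down became 1 and 7 under either scaling, 0 and 0 without the activity filter, and 0 to 30 and 0 to 2 with a library left out. No alternative reversed the sign of a call of the 10 genes. Libraries of the same number deviated together with a correlation of 0.02 for gene bodies and -0.11 for promoter-proximal reads, so the numbers do not establish a pairing. With the replicate block, 0 of the 10 genes were called up at the promoter-proximal region (*Atf4* adjusted p = 0.0849, *Trib3* 0.0561) and 0 in the pausing index, and 8 related genes were called up. With the crossed pairing, an alternative chosen after seeing the data, 3 of the 10 genes were called up at the promoter-proximal region and 2 in the pausing index, with 37 related genes up. Depth limits *Asns* and *Trib3* most, with 14 to 38 promoter-proximal reads per library. The causes of these shifts were not tested.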

Other observations

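Among genes within 250 kb of *Herpud1*, 7 of 9 in the table were active. In the gene body 2 were called down and 0 up, beside 11.4% and 10.4% of all active genes. *Slc12a3*, a sodium chloride transporter that ends 20207 bp before *Herpud1*, had 927 and 818 normalized gene body reads in WT and 291 and 346 in KO, with a log2 fold change of -1.45 (standard error 0.14, limma adjusted p = 2.11e-08). *Mt1*, a metallothionein, had 1269 and 369 in WT and 170 and 117 in KO (-2.27, standard error 0.32, adjusted p = 3.34e-06), with WT1 far above WT2. *Nup93*, a nuclear pore gene that lies 58329 bp away on the same side, had 1158 and 1193 in WT and 1240 and 1163 in KO (0.03, adjusted p = 0.854). On the other side, *Nlrc5*, a regulator of MHC class I genes, had 2310 and 2113 in WT and 2462 and 2135 in KO (0.05, adjusted p = 0.741). Farther out on that side the genotypes did not overlap, as in 70.5% of active genes. *Cpne2* had 1280 and 1401 in WT and 2026 and 1959 in KO (0.57, adjusted p = 0.000253, short of the fold threshold), and *Rspry1* had 1858 and 1644 in WT and 1538 and 1313 in KO (-0.30, adjusted p = 0.0516).

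*Cebpb* and *Ddit4* lost gene body reads while their promoter-proximal reads, 1140 and 955 in WT and 947 and 1550 in KO for *Cebpb* and 3644 and 3897 in WT and 4552 and 5592 in KO for *Ddit4*, were not called. In *Chac1* both regions were called down, and in *Gdf15* both were called up.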
